A study of Mus musculus with 4 samples.

Results

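Of 130941 regions of open chromatin in the deposited peak table, 16845 (12.9%) are annotated as a promoter at the transcription start of a gene with a proper name, and these promoters are described here. They were chosen from the annotation column and the gene name alone, leaving out 3054 promoter peaks of predicted genes (names made of Gm and digits) and of Rik clones, so no accessibility value entered the choice. They belong to 11932 genes. Fast-ATAC, which uses a transposase to tag open DNA with adapters for sequencing, was run on Lin-Sca1+cKit+ cells, the bone marrow fraction enriched for stem and early progenitor cells of blood. One group was Helios null and the other wild type, with 2 libraries each, every library from a separate mouse 10 weeks old. Helios is the transcription factor of the Ikaros family that Ikzf2 encodes, and the sources used here do not give the deleted part of Ikzf2, the strain or the sex. Counts over all peaks totalled 30290804 and 22433714 in Helios null 1 and 2, against 29745812 and 16033211 in wild type 1 and 2.

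A promoter is the stretch of DNA around the start of a gene where RNA polymerase and the general transcription factors assemble. In most mammalian cells the promoters of widely used genes are kept free of nucleosomes and are rich in CpG dinucleotides, the pair of a C followed by a G, while promoters of genes used in 1 lineage are more often poor in CpG and open only in that lineage. An open promoter marks a gene that can be transcribed, and the reads over it do not measure its RNA. Ikaros-family proteins bind DNA through zinc fingers and recruit chromatin remodelling complexes, the NuRD complex among them.

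Promoter sequence is shown for genes that recur below, because they cover both the CpG-poor and the CpG-rich kind. Gp1ba encodes the platelet receptor for von Willebrand factor and Pafah2 an enzyme that inactivates platelet-activating factor, and both promoters had more signal in Helios null mice. Those of Adcy2, which encodes an adenylyl cyclase, and of Lancl1, which encodes a glutathione-binding protein, had less, and the promoter of Lnpep, a cell-surface aminopeptidase, had the highest signal of all per kb. Each line gives the 250 bases before the annotated start in RefSeq build GRCm38.p6, which has the coordinates of the files' mm10 build, 5′ to 3′ on the gene's own strand. Capitals mark matches, on either strand, to the GC box (GGGCGG), the CCAAT box (CCAAT), the TATA box (TATAAA, whose matches in the Lancl1 window overlap) or the RUNX element (TGTGGT).
Gp1ba (chr11:70638872-70639121, plus strand): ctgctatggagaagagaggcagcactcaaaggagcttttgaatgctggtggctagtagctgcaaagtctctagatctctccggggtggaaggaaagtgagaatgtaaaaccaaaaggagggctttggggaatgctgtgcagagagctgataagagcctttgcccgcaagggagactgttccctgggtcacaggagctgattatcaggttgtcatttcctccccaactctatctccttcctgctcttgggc
Pafah2 (chr4:134402662-134402911, plus strand): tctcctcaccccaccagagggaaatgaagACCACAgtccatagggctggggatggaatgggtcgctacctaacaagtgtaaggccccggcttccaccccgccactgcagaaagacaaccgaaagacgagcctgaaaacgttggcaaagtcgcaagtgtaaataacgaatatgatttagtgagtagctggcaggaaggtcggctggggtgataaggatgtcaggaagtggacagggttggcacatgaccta
Adcy2 (chr13:68999542-68999791, minus strand): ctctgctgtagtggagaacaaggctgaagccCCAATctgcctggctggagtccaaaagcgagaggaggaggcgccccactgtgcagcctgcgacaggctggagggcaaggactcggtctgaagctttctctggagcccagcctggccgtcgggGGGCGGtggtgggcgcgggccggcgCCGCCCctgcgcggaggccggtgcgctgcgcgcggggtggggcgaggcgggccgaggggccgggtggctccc
Lancl1 (chr1:67038835-67039084, minus strand): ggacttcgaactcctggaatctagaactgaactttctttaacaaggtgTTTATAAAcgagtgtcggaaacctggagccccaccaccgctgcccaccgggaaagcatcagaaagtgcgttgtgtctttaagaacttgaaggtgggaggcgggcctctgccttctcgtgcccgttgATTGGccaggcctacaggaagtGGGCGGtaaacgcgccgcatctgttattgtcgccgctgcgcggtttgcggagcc
Lnpep (chr17:17624490-17624739, minus strand): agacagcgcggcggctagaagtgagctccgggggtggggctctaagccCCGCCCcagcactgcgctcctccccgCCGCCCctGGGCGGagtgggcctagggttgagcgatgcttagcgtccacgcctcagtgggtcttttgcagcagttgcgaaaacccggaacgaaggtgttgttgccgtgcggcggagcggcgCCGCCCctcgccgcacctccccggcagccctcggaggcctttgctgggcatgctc
The Gp1ba window holds 2 CpG dinucleotides and no match to the 15 motifs searched. The Pafah2 window holds 9 CpG and 1 RUNX element. The windows of Adcy2, Lancl1 and Lnpep hold 23, 18 and 25 CpG, with 2, 1 and 4 GC boxes. A match describes the letters of a window and does not show that a factor binds there. These few windows cannot set CpG content against the direction of change, and that link was not tested.

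Over the whole set, 7826 of the 16833 tested promoters (46.5%) overlapped a RefSeq promoter window of the same gene symbol, so statements on base content hold for these promoters only. A window was called CpG-rich at a GC content of at least 50% and an observed-over-expected CpG ratio of at least 0.6. Of the matched promoters, 68.5% were CpG-rich, against 33.4% of all 32817 windows in the table. CpG-rich promoters had a median signal of 26.0 CPM (counts scaled to a common library size with TMM factors, n = 5360), against 11.6 CPM for the other matched promoters (n = 2466). Their peaks were also wider, at medians of 1191.5 and 833.5 bp, and per kb of peak the medians were 22.7 and 14.6 CPM. A GC box, the site of Sp and Klf factors, stood in 65.9% of matched promoters, against 35.6% of all windows of 300 bases. The TATA box (TATAAA) stood in 6.47%, against 13.6% of all windows. The RUNX element stood in 12.9% of matched promoters and 16.8% of all windows, and the core of the Ikaros-family element with its flanks (TGGGAA) in 22.6% and 25.6%. The median log2 fold change, Helios null over wild type, was -0.04 for CpG-rich promoters and 0.03 for the other matched ones. With gene density offsets, explained below, these were -0.18 and -0.11. Without offsets the median was -0.01 for promoters with the Ikaros-family element and -0.03 for those without it. For promoters with and without the RUNX element it was 0.06 and -0.03.

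These promoters were wide and strong beside the other peaks. Their width ran over 74 to 2791 bp with a median of 747 bp, against 388 bp for all other tested peaks. Per kb of peak, their median signal was 16.0 CPM, against 7.55 CPM for all other peaks. Signal was unequal: the lower and upper quartiles were 3.12 and 26.6 CPM, and the 2703 strongest promoters held as many counts as the rest of the set. The annotation of the peak reads protein-coding at 92.1% of the tested promoters. This label belongs to the annotation entry and need not describe the named gene: the Ifrd1 peak carries miRNA and the Arrdc3 peak processed transcript. Of the 11931 genes with a tested promoter, 8525 had 1 promoter peak and 3406 (28.5%) had several. Foxp1, Mef2c and Pde4d had 9 each and Ablim1 and Akap13 had 8 each.

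The 10 promoters with the highest signal per kb all lay in the strongest of 10 bins by mean CPM. That of Lnpep held 156 and 182 CPM in Helios null 1 and 2, against 201 and 279 CPM in wild type 1 and 2. That of Khsrp, which encodes an RNA-binding protein of splicing and mRNA decay, held 126 and 126 CPM in Helios null mice, against 147 and 178 CPM in wild-type mice. The promoter of Hjurp, the chaperone of the centromeric histone variant, held 117 and 158 CPM, against 174 and 298 CPM in wild type. In these 3 promoters both Helios null libraries lay below both wild-type libraries. The same held for 6 more of the 10 promoters highest per kb, those of Mon1b, Mpp7, Kbtbd3, Ifrd1, Zfp788 and Arrdc3, with log2 fold changes between -0.89 and -0.49. That made 9 of 10, against 62.7% of the promoters in the strongest bin, 32.6% of all these promoters and 28.3% of all tested peaks. Agpat3, which encodes an acyltransferase of phospholipid synthesis, was the exception at 157 and 151 CPM in Helios null mice against 148 and 125 CPM in wild-type mice (log2 fold change 0.17, SE 0.17). With offsets for the number of genes nearby, explained below, its value turned to -0.13, those of Mon1b, Mpp7 and Arrdc3 shrank to -0.14, -0.21 and -0.13, and that of Khsrp went to -0.70, against -0.37 without offsets. None of the 10 passed edgeR's quasi-likelihood test, with Benjamini-Hochberg adjusted p between 0.189 and 0.561.

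The share of all counts that fell on these promoters was 29.1% and 30.3% in Helios null 1 and 2, against 31.1% and 32.1% in wild type 1 and 2. Both Helios null libraries lay below both wild-type libraries, with means of 29.7% ± 0.847 and 31.6% ± 0.738 (SD, n = 2 each) and a difference of -1.95 percentage points. Within library numbers the difference was -2.03 for number 1 and -1.87 for number 2. The exact permutation test gave p = 0.333, 2-sided, which is the smallest p that 2 against 2 allows. Promoters were put into 10 equal bins by mean CPM over the same libraries. The values that set the bins thus also give the differences, and the part of this choice was not tested. The strongest bin carried almost all of the difference in share: it took 9.90% and 10.7% of counts in Helios null mice, against 11.5% and 12.9% in wild-type mice (difference -1.87 percentage points, exact permutation p = 0.333, with -1.58 within number 1 and -2.15 within number 2). The other promoters took 19.2% and 19.5% in Helios null mice, against 19.6% and 19.3% in wild-type mice, and there the groups overlapped (difference -0.0854, exact permutation p = 0.667). Counting error was small beside this: the Wilson 95% interval of the promoter share in wild type 2, the shallowest library, was 32.10% to 32.15%.

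**Figure D1:**
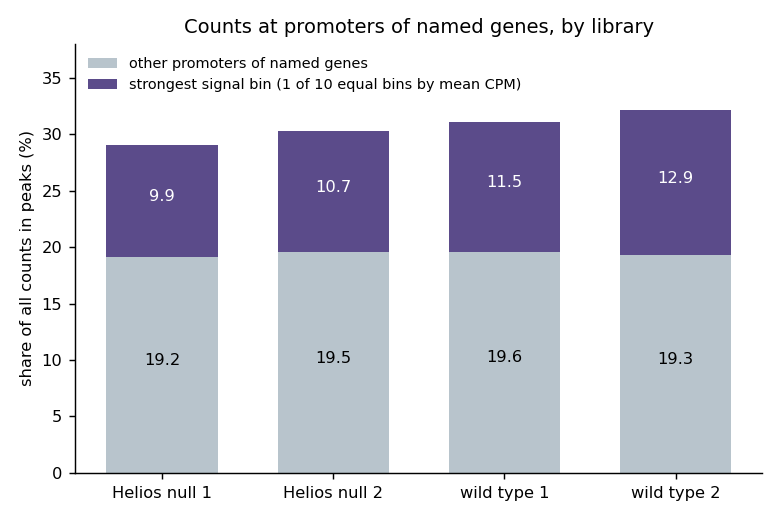
Share of all counts in peaks (%, y axis) at promoters of named genes in each library, Helios null left of wild type, split into the strongest of 10 equal bins by mean CPM over the same libraries (dark) and the rest (grey). The dark part is 9.90% and 10.7% in Helios null and 11.5% and 12.9% in wild type, while the grey part is between 19.2% and 19.6% in all 4 libraries.

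Libraries of 1 genotype also differed from each other. The 6 peaks at promoters of Y-linked genes held 859 and 2 counts in Helios null 1 and 2, against 1323 and 5 in wild type 1 and 2, so library number 1 carried a Y chromosome in both genotypes and was also the deeper library. Number, Y chromosome and depth cannot be told apart. Values within numbers compare 1 library with 1 library and carry no test. In fits with library number as a term beside genotype, the number takes out what the libraries of 1 number share.

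Which promoters differ between the genotypes was tested for each promoter over all 130754 tested peaks, 16833 of them promoters of named genes. None of these promoters passed edgeR's quasi-likelihood test at an adjusted p under 0.05, against 0.00612% of all tested peaks. The smallest adjusted p was 0.0657. At an unadjusted p under 0.05, 1228 promoters (7.30%) were higher and 2498 (14.8%) lower in Helios null mice, against 8.29% and 11.5% of all tested peaks. The groups did not overlap at 5274 promoters with Helios null higher (31.3%) and at 5484 with Helios null lower (32.6%), against 28.0% and 28.3% of all tested peaks. The median log2 fold change was 0.02, against 0.01 over all tested peaks, and 51.6% of promoters lay above 0, against 50.4%. Changes were mostly small: 207 promoters had a log2 fold change above 1 and 529 below -1.

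Calls depended on the model. With library number as a term, edgeR called 1892 promoters higher (11.2%, against 10.6% of all tested peaks) and 3023 lower (18.0%, against 12.8%). DESeq2 without that term gave 11825 promoters an adjusted p and called 24 higher (0.203%, against 0.433% of all peaks it adjusted) and 156 lower (1.32%, against 0.926%). In the authors' deposited table, 25 promoters were higher (0.216%, against 0.455% of all peaks with an adjusted p) and 160 lower (1.38%, against 0.958%) at an adjusted p under 0.05. Lower calls thus made up a larger share among promoters than among all peaks in each of these counts, and higher calls a smaller share in the DESeq2 counts and in the authors' deposited table. Other classes shared part of this: with library number, lower calls were 15.3% at promoters of predicted or Rik genes and 15.7% at exon peaks. Signal differed as well, with medians of 10.1 CPM for these promoters and 3.17 CPM over all tested peaks. Below, a promoter is said to be called with library number when its edgeR adjusted p is under 0.05 in the fit with that term.

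The 10 promoters with more signal in Helios null mice and the smallest p were taken from those of at least median signal whose groups did not overlap. Hsd17b14, a hydroxysteroid dehydrogenase gene (chromosome 7, 45561636 to 45562620), held 17.2 and 13.6 CPM in Helios null 1 and 2, against 6.88 and 5.62 CPM in wild type 1 and 2 (log2 fold change 1.29, SE 0.25). Gp1ba (chromosome 11, 70638372 to 70639625) held 42.4 and 29.1 CPM in Helios null mice, against 16.9 and 14.1 CPM in wild-type mice (log2 fold change 1.20, SE 0.23). Ccnd3, the gene of cyclin D3, which drives cells into S phase (chromosome 17, 47595322 to 47596095), held 48.2 and 43.3 CPM in Helios null mice, against 26.3 and 24.2 CPM in wild-type mice (log2 fold change 0.86, SE 0.19). In each of these promoters both Helios null libraries exceeded both wild-type libraries, and number 1 was above number 2 in both genotypes. Aqp9, a water and glycerol channel gene, held 18.2 and 11.6 CPM in Helios null mice, against 6.38 and 6.52 CPM in wild-type mice. Pafah2 held 56.7 and 41.3 CPM in Helios null mice, against 28.5 and 19.7 CPM in wild-type mice. Thy1, the gene of a surface glycoprotein of T cells and neurons, held 20.2 and 15.4 CPM in Helios null mice, against 9.63 and 7.23 CPM in wild-type mice. The remaining 4, Fam198a, Soga1, Galnt2 and AC160562.2, had log2 fold changes between 0.94 and 1.15.

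The same rule in the other direction gave 10 promoters with less signal in Helios null mice. Adcy2 (chromosome 13, 68998706 to 69000200) held 14.3 and 17.5 CPM in Helios null 1 and 2, against 31.3 and 43.5 CPM in wild type 1 and 2 (log2 fold change -1.23, SE 0.23). Epha3, an ephrin receptor gene (chromosome 16, 63863844 to 63864899), held 6.07 and 8.90 CPM in Helios null mice, against 15.8 and 27.2 CPM in wild-type mice (log2 fold change -1.52, SE 0.30). Map2, which encodes a microtubule-binding protein of neurons (chromosome 1, 66174715 to 66175943), held 9.70 and 17.0 CPM in Helios null mice, against 28.0 and 51.2 CPM in wild-type mice (log2 fold change -1.57, SE 0.32). These 3 genes are known for roles outside blood, and their promoters lay in signal bins 8, 6 and 8 of 10 here, with bin 10 the strongest. Macrod2, which encodes an enzyme that removes ADP-ribose from proteins, held 34.4 and 50.3 CPM in Helios null mice, against 76.6 and 138 CPM in wild-type mice. Eif3e, which encodes a subunit of a translation initiation factor, held 11.3 and 14.3 CPM in Helios null mice, against 23.3 and 33.4 CPM in wild-type mice. The zinc finger genes Zscan18 and Zfp317 and the genes Lancl1, Ccser1 and Nav3 had log2 fold changes between -1.46 and -1.10.

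The direction of these 20 promoters was fixed by the choice of groups that do not overlap. Their edgeR adjusted p was 0.189 in every case, and all 20 were called with library number and by DESeq2. Without Helios null 1, 0 of the 20 passed in edgeR, while 13, 20 and 19 passed without Helios null 2, wild type 1 and wild type 2. In the authors' deposited table all 20 had an adjusted p under 0.05, from the same libraries. The genomic surroundings of the groups differed: the number of protein-coding genes within 0.5 Mb was between 5 and 64 for the 10 higher promoters and between 1 and 33 for the 10 lower ones. With the trend on gene density removed, the log2 fold changes of Hsd17b14, Gp1ba, Adcy2 and Epha3 were 0.91, 0.88, -0.96 and -0.92. Those of Aqp9, AC160562.2, Zscan18 and Zfp317 moved away from 0, to 1.37, 1.35, -1.45 and -1.44. All others of the 20 moved towards 0.

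**Figure D2:**
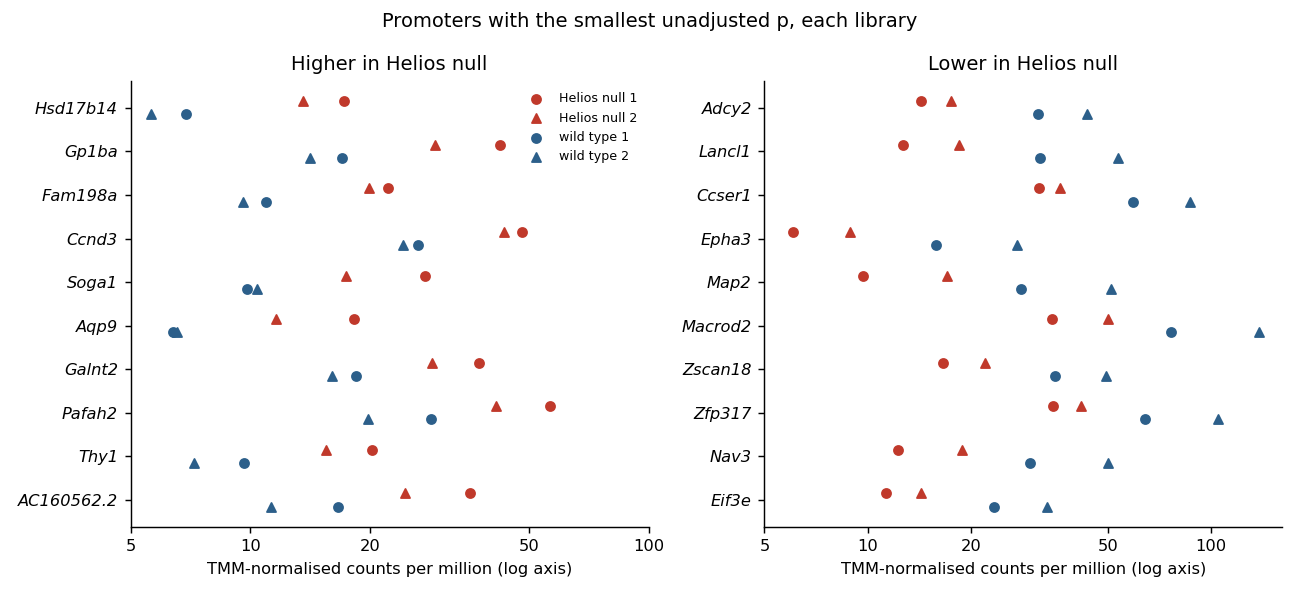
TMM-normalised CPM (x axis, log scale) in each library at the 10 promoters with the smallest p in each direction, among those of at least median signal whose groups do not overlap. Helios null libraries (red) stand right of wild-type libraries (blue) in the left panel and left of them in the right panel, as with Hsd17b14 at 17.2 and 13.6 CPM against 6.88 and 5.62 CPM.

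Strong promoters were lower in Helios null mice more often than weak ones. In signal bin 1, the weakest, the median log2 fold change was 0.08, and it stayed between 0.06 and 0.10 up to bin 7. It was 0.01, -0.06 and -0.26 in bins 8, 9 and 10. With gene density offsets, described below, it was -0.02 in bin 1 and -0.28 in bin 10. In bin 10, which starts at 46.2 CPM, both Helios null libraries lay below both wild-type libraries at 1056 promoters (62.7%) and above at 340 (20.2%). With library number as a term, 773 promoters of that bin (45.9%) were called lower and 136 (8.08%) higher. The median of bin 10 was -0.22 within number 1 and -0.31 within number 2. All other peaks within the same CPM limits (n = 1135) had a median of -0.09, with 33.2% called lower and 20.9% called higher in that fit. Bins were set by the mean over all 4 libraries, and the part of this choice in the trend was not tested. The median of bin 10 was below 0 in all 16 other fits, between -0.38 and -0.13. It was -0.16 without wild type 2, and -0.13 with loess offsets, which flatten any trend of the difference on abundance over all peaks.

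**Figure D3:**
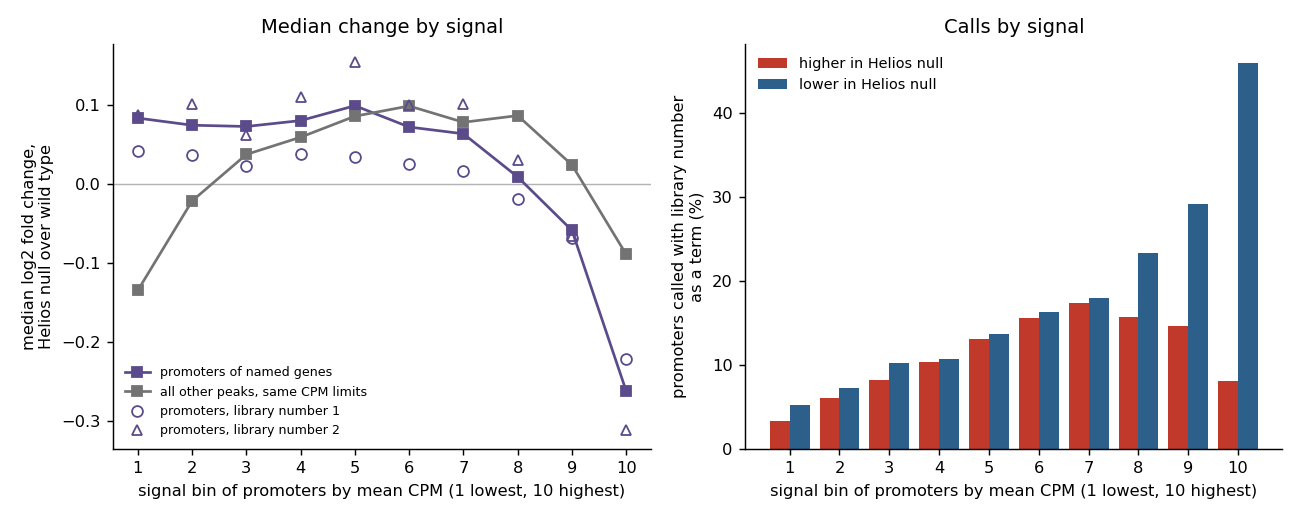
Left, median log2 fold change, Helios null over wild type (y axis), in 10 equal bins of promoters by mean CPM (x axis), for promoters (purple), for all other peaks within the same CPM limits (grey) and within library numbers (open symbols). Right, percentage of promoters called higher (red) or lower (blue) with library number as a term: lower calls reach 45.9% in bin 10, where higher calls are 8.08%.

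The direction of the difference also followed the number of genes around a promoter. Among promoters with 0 to 7 protein-coding genes within 0.5 Mb, the median log2 fold change was -0.46 and 44.3% were called lower with library number, against 2.54% called higher. Among those with 32 to 74 such genes the median was 0.24, with 3.40% called lower and 20.3% called higher. The 3 bins between had medians of -0.17, 0.07 and 0.22. The most gene-poor and most gene-rich bins had medians of -0.27 and 0.11 when wild type 2 was left out, and of -0.65 and 0.39 when wild type 1 was. All other peaks showed the same order over these limits, with medians of -0.32, 0.00, 0.20, 0.35 and 0.37. In each of the 5 bins the promoters lay below the other peaks, and in each the promoters of signal bin 10 lay below the remaining promoters, with -0.61 and -0.43 in the most gene-poor bin and 0.11 and 0.25 in the most gene-rich bin.

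With gene density offsets, which remove this trend over all peaks in each library, the median of the promoters was -0.10, against 0.01 over all tested peaks. Promoters of predicted or Rik genes had -0.05 and exon peaks -0.06 with these offsets. In that fit with library number as a term, 867 promoters (5.15%, against 8.33% of all tested peaks) were called higher and 3138 (18.6%, against 8.40%) lower. The 1 promoter that passed edgeR with these offsets and without the number term, where 0.00841% of all tested peaks passed, was that of Acadl. The part of gene density in the differences between genotypes was not tested.

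By chromosome, the promoters of chromosome 11 had the highest median log2 fold change, 0.38 over 1347 promoters. With library number, 441 of them (32.7%) were called higher and 58 (4.31%) lower. Over all promoters of named genes these shares were 11.2% and 18.0%, and over all tested peaks 10.6% and 12.8%. Chromosome 15 followed at a median of 0.24 and chromosomes 17 and 19 at 0.18 each. Leaving out the Y chromosome with its 6 promoters, the X chromosome had the lowest median, -0.39 over 464 promoters. Chromosomes 18 (-0.30), 3 (-0.20) and 13 (-0.16) followed. Of the X chromosome promoters, 1 (0.216%) was called higher and 175 (37.7%) lower with library number. The X chromosome median was -0.35 within number 1 and -0.44 within number 2, so it was below 0 in the libraries with and without a Y chromosome. Chromosome 11 had a median of 22 protein-coding genes within 0.5 Mb and the X chromosome 11. With gene density offsets their medians were 0.15 and -0.42, without wild type 1 they were 0.57 and -0.59, and without wild type 2 they were 0.21 and -0.24.

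**Figure D4:**
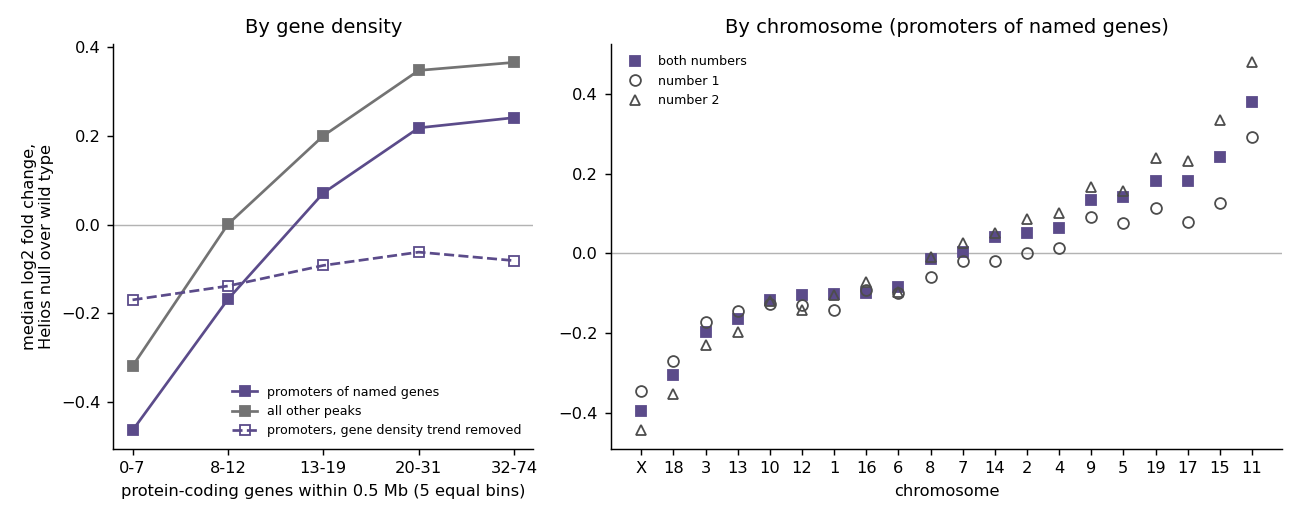
Left, median log2 fold change, Helios null over wild type (y axis), in 5 equal bins of promoters by the number of protein-coding genes within 0.5 Mb (x axis), for promoters, for all other peaks and for promoters with the gene density trend removed. Right, the median over the promoters of each chromosome, the Y chromosome left out, with the values within library numbers: chromosome 11 is highest at 0.38 and the X chromosome lowest at -0.39.

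The Ikaros family was described next because Helios belongs to it. The main promoter of Ikzf2 (chromosome 1, 69687010 to 69688027) held 22.2 and 24.0 CPM in Helios null 1 and 2, against 32.8 and 48.2 CPM in wild type 1 and 2. Both Helios null libraries lay below both wild-type libraries (log2 fold change -0.80, SE 0.22, edgeR adjusted p = 0.189), and the promoter was open in both groups, which does not check the genotype. It was called lower with library number (edgeR adjusted p = 9.86e-05), but not with gene density offsets added (log2 fold change -0.29, edgeR adjusted p = 0.113). Its 3 minor promoter peaks held between 1.78 and 2.49 CPM in Helios null mice and between 2.00 and 3.16 CPM in wild-type mice. Ikzf1, which encodes Ikaros, the founding member, had promoter peaks that went opposite ways. The stronger one (chromosome 11, 11685559 to 11686446) held 27.2 and 28.1 CPM in Helios null mice, against 33.3 and 40.4 CPM in wild-type mice (log2 fold change -0.41), and was called lower with library number (edgeR adjusted p = 0.0253), but not with gene density offsets added (edgeR adjusted p = 0.0900). The weaker one, just upstream, held 12.5 and 12.2 CPM in Helios null mice, against 10.3 and 8.72 CPM in wild-type mice (log2 fold change 0.37). Ikzf3, Ikzf4 and Ikzf5, which encode Aiolos, Eos and Pegasus, had log2 fold changes between -0.24 and 0.50, and none was called with library number. With gene density offsets added, Ikzf5 was called lower (log2 fold change -0.39, edgeR adjusted p = 0.0359). It was the 1 promoter peak of the family called in that fit.

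Promoters near Ikzf2 on chromosome 1 held the member with the smallest adjusted p, and they were counted after their values were seen. Within 5 Mb of the main Ikzf2 promoter there were 59 promoters of 36 genes, with 3 called higher and 23 (39.0%) called lower with library number, against 55 and 225 (23.4%) of 963 promoters on the rest of the chromosome. A small promoter peak of Acadl, which encodes an enzyme of fatty acid oxidation (66863858 to 66864001), had 22 and 18 counts in Helios null 1 and 2, against 140 and 93 counts in wild type 1 and 2. Its log2 fold change was -2.80 (SE 0.34, edgeR adjusted p = 0.0657), with -2.55 within number 1 and -2.81 within number 2, and it passed with gene density offsets (edgeR adjusted p = 0.0433). Unc80 and Erbb4, genes of a neuronal sodium channel complex and of a growth factor receptor, each had 2 promoter peaks lower in Helios null mice, with log2 fold changes between -1.52 and -1.14. Map2 and Lancl1 each had a promoter lower and another higher. The second Map2 promoter (66321680 to 66322160) had 84 and 122 counts in Helios null mice, against 15 and 12 counts in wild-type mice (log2 fold change 2.71, SE 0.45), beside -1.57 at the first. The second Lancl1 promoter, in the weakest signal bin, had 87 and 38 counts in Helios null mice, against 6 and 21 counts in wild-type mice (1.74, SE 0.65), beside -1.46 at the first. In CPM these were 2.87 and 1.66, against 0.199 and 1.36. The difference was 3.40 within number 1 and 0.28 within number 2, so it rested mostly on number 1.

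Among the 3406 genes with several promoter peaks, opposite calls were rare. With library number as a term, 541 of these genes had at least 2 called promoters, of which 241 had all of them higher, 296 all lower and 4 both kinds. The 4 were Map2, Lancl1, Ift80 and Stox2. The median range of log2 fold changes within a gene was 0.29. Runx1, a regulator of blood stem cell formation chosen here after its values were seen, had 4 promoter peaks with log2 fold changes between 0.45 and 0.72. Its strongest held 63.9 and 47.0 CPM in Helios null mice, against 40.5 and 26.9 CPM in wild-type mice, and was called higher with library number (edgeR adjusted p = 6.90e-05). All 4 promoter peaks of Ccnd3 lay above 0, between 0.33 and 0.86. The 9 promoter peaks of Mef2c, a transcription factor of lymphoid and myeloid cells, all lay below 0 in a region of 1 protein-coding gene, and all but 1 of them lay above 0 with gene density offsets. Peaks of 1 gene often lie within a few kb and are not independent of each other.

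Promoters of blood genes were then counted by list. Over all promoters of named genes, 31.3% had groups that did not overlap with Helios null higher and 32.6% with Helios null lower. With library number, 11.2% of them were called higher and 18.0% lower, against 10.6% and 12.8% of all tested peaks. Among 76 promoter peaks of 30 regulators of blood stem and progenitor cells, the median log2 fold change was 0.27, 54 lay above 0, 29 (38.2%) had Helios null higher without overlap and 11 (14.5%) had it lower. With library number 19 were called higher and 5 lower, and the median was 0.23 within number 1, 0.30 within number 2 and 0.25 with gene density offsets. Without Helios null 1 or without wild type 2 it was 0.16, and without wild type 1 it was 0.45. Gfi1b, a repressor needed in megakaryocytes and red cells, held 22.7 and 14.8 CPM in Helios null mice, against 11.9 and 7.94 CPM in wild-type mice (log2 fold change 0.91). Nfe2l2 and Etv6, the most open promoters of the list, had log2 fold changes of 0.02 and -0.06.

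The sorted cells were checked against their surface genes. The main Kit promoter held 34.1 and 36.3 CPM in Helios null mice, against 31.3 and 26.4 CPM in wild-type mice, and the Cd34 promoter 29.3 and 29.1 CPM, against 37.9 and 42.9 CPM. No promoter peak was assigned to Ly6a, which encodes Sca1. The 29 promoters of 19 stem cell surface genes summed to 613 and 624 CPM in Helios null mice and 606 and 622 CPM in wild-type mice, with a median log2 fold change of 0.09. Bmpr1a, a BMP receptor gene, held 6.99 and 10.4 CPM in Helios null mice, against 13.4 and 19.8 CPM in wild-type mice (-0.93), and was called lower with library number.

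Lineage lists were counted next, megakaryocytes and platelets first. Over the 34 promoter peaks of 23 genes the median log2 fold change was 0.32, with 27 above 0, 17 higher and 3 (8.82%) lower without overlap of groups. With library number 9 (26.5%) were called higher and 2 (5.88%) lower. The median was 0.37 within number 1, 0.25 within number 2, 0.20 with gene density offsets and 0.21 without Helios null 1. Besides Gp1ba, the platelet integrin gene Itga2b, chosen after its values were seen, had a promoter with 47.6 and 28.4 CPM in Helios null mice, against 23.2 and 18.7 CPM in wild-type mice (0.86, and 0.55 with gene density offsets). Pf4, which encodes platelet factor 4 and was looked up with it, held 38.8 and 31.1 CPM in Helios null mice, against 25.4 and 33.6 CPM in wild-type mice, and its groups overlapped. P2ry1, an ADP receptor gene of platelets, had 46.4 and 50.9 CPM in Helios null mice, against 56.2 and 85.0 CPM in wild-type mice (-0.53). P2ry1 had -0.11 with gene density offsets, and with library number added it was not called (edgeR adjusted p = 0.588). The peaks of this list have a median of 17.5 protein-coding genes within 0.5 Mb, against 15 over all these promoters.

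Granulocyte and monocyte promoters had a median of 0.24 over 30 peaks, 24 of them above 0. Of the 30, 9 (30.0%) were higher and 3 lower without overlap, and 4 (13.3%) were called higher and 3 (10.0%) lower with library number. The median varied with the libraries used: it was 0.09 within number 1, 0.39 within number 2, 0.57 without wild type 1, 0.11 without Helios null 1 and -0.003 without wild type 2, where the direction turned. Mpo, the gene of the neutrophil enzyme myeloperoxidase, held 18.7 and 15.7 CPM in Helios null mice, against 11.2 and 5.17 CPM in wild-type mice (log2 fold change 1.05). Cebpa, the main transcription factor gene of the lineage, held 67.9 and 72.2 CPM, against 72.7 and 63.2 CPM, and overlapped. The promoter of Cebpd went the other way, with 39.5 and 42.9 CPM in Helios null mice, against 53.0 and 61.0 CPM in wild-type mice (-0.47). It was called lower with library number, and also with gene density offsets added. Erythroid promoters had a median of 0.08 over 29 peaks, with 7 (24.1%) called higher and 1 (3.45%) lower. Their median was -0.07 both with gene density offsets and without Helios null 1, and -0.02 without wild type 1. Hemgn, a nuclear protein gene of red cell precursors, held 38.9 and 27.8 CPM in Helios null mice, against 22.8 and 17.7 CPM in wild-type mice (0.72). Lymphoid promoters had a median of -0.08 over 58 peaks, with 3 (5.17%) called higher and 4 (6.90%) lower, and a median of 0.06 with gene density offsets. Gata3, a T cell transcription factor gene, held 37.0 and 38.3 CPM in Helios null mice, against 48.1 and 59.7 CPM in wild-type mice (-0.52), and Id3, which encodes an inhibitor of E proteins, 24.3 and 21.1 CPM, against 15.9 and 13.4 CPM (0.62, and 0.34 with gene density offsets).

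Of the signalling lists, JAK-STAT was counted first. Its 44 promoter peaks had a median of 0.26, with 33 above 0, 22 higher and 3 (6.82%) lower without overlap. With library number 13 (29.5%) were called higher and 1 (2.27%) lower. These promoters lie among many genes, with a median of 27 protein-coding genes within 0.5 Mb, and with gene density offsets and library number 3 were called higher and 3 lower, at a median of 0.10. Without wild type 2 the median was also 0.10. Socs3, a feedback inhibitor gene chosen after its values were seen, held 60.6 and 48.6 CPM in Helios null mice, against 39.7 and 23.8 CPM in wild-type mice (0.78). Cblb, which encodes a ubiquitin ligase, was the 1 promoter called lower with library number, at 82.4 and 105 CPM in Helios null mice, against 139 and 201 CPM in wild-type mice (-0.85, and -0.35 with gene density offsets). NF-kB promoters had a median of 0.09 over 43 peaks, and -0.04 both with gene density offsets and without Helios null 1. With library number 4 (9.30%) were called higher and 7 (16.3%) lower. A weak promoter of the cytokine gene Il1b held 4.35 and 1.66 CPM in Helios null mice, against 0.299 and 0.710 CPM in wild-type mice (2.70, SE 0.57), while Nfkbiz, which encodes a nuclear cofactor of NF-kB, held 40.2 and 53.4 CPM, against 61.0 and 85.7 CPM (-0.65).

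Promoters of the NuRD complex, through which Ikaros-family proteins act, had a median of 0.01 over 20 peaks, with 2 called higher and 3 lower. Mbd2, a methyl-CpG binding subunit gene, held 15.8 and 19.4 CPM in Helios null mice, against 27.0 and 48.0 CPM in wild-type mice (-1.09), and Rbbp7, a histone-binding subunit gene on the X chromosome, 31.3 and 40.0 CPM, against 47.8 and 71.5 CPM (-0.74). With gene density offsets the median of the list was -0.29, and with library number added 0 of the 20 were called higher and 8 lower. In that fit 5.15% of all these promoters were called higher and 18.6% lower, against 8.33% and 8.40% of all tested peaks. Cell cycle, immediate-early and constitutive promoters, over 46, 45 and 29 peaks, had medians of 0.05, 0.08 and 0.08, and of -0.008, -0.03 and -0.18 with gene density offsets. With these offsets and library number, 3, 3 and 0 of them were called higher and 8, 4 and 8 lower. The constitutive list thus had the same counts as the NuRD list in that fit. Among these 3 lists Nr4a2 and Klf6, transcription factor genes of the immediate-early response, were lower at log2 fold changes of -0.91 and -0.83, with -0.55 and -0.23 under gene density offsets. Sdha and Polr2a, genes used as constitutive references, had -0.60 and 0.47, with -0.83 and 0.08 under gene density offsets.

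Promoters of other cell types were counted beside these lists, since a sorted fraction can hold other cells. The T and NK cell promoters, over 15 peaks of 11 of 17 genes, summed to 144 and 126 CPM in Helios null mice and 142 and 110 CPM in wild-type mice. B cell promoters, over 13 peaks of 10 of 14 genes, summed to 126 and 110 CPM, against 108 and 101 CPM, and mature myeloid promoters, over 13 peaks of 9 of 18 genes, to 79.9 and 70.3 CPM, against 71.9 and 60.6 CPM. Mast cell and basophil promoters, over 9 peaks of 5 of 10 genes that include Gata2 and Hdc, summed to 56.3 and 46.1 CPM in Helios null mice, against 42.1 and 42.3 CPM in wild-type mice. Stroma and endothelium promoters, over 14 peaks of 10 of 14 genes, summed to 231 and 225 CPM, against 232 and 236 CPM. Some listed genes are not confined to these cells. The strongest peak of Gata2, also a gene of the sorted stem and progenitor cells, held 16.2 and 16.5 CPM, against 12.4 and 11.2 CPM. Vim peaks of the stroma list held 42.5 and 38.8 CPM in Helios null 1, against 51.9 and 50.6 CPM in wild type 1. The sums therefore do not measure other cells alone. The medians of these lists, in the same order, were 0.16, 0.13, -0.09, 0.47 and 0.25, where 0.47 is the value of that Gata2 peak. With gene density offsets they were -0.11, 0.04, -0.15, 0.23 and 0.17, and the T and NK cell and mature myeloid medians were -0.23 and -0.19 without wild type 2 and 0.49 and 0.36 without wild type 1. With library number, 1, 4, 3, 2 and 3 peaks of these lists, in the same order, were called higher. These were 6.67%, 30.8%, 23.1%, 22.2% and 21.4% of each list, against 11.2% of all these promoters and 10.6% of all tested peaks. Called lower were 1, 1, 2, 0 and 3 (6.67%, 7.69%, 15.4%, 0% and 21.4%), against 18.0% and 12.8%. Among the called peaks, H2-Aa and C1qc were higher (0.93 and 1.07) and Cr2 and Siglech lower (-0.72 and -0.99). The part of such cells in the results was not tested. No promoter peak was assigned to Cd3d, Cd3e, Cd3g, Cd8a, Cd79a, Ms4a1, Ly6g, S100a8 or S100a9. Such a gene can still have a peak of another annotation class.

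Promoters of genes used outside blood were few. Of 28 such genes, 7 had a promoter peak. The median log2 fold change of their 14 peaks was -0.66, with 10 (71.4%) lower and 3 higher without overlap of groups. With library number 5 (35.7%) were called lower and 1 (7.14%) higher. Their summed signal was 75.8 and 86.8 CPM in Helios null mice, against 104 and 129 CPM in wild-type mice. The median was -0.33 within number 1, -0.72 within number 2, -0.50 with gene density offsets and -0.32 without wild type 2. Actn2, which encodes the alpha-actinin of muscle, held 30.6 and 40.0 CPM in Helios null mice, against 52.0 and 61.8 CPM in wild-type mice (-0.69). Pax6, an eye and brain transcription factor gene, held 1.72 and 2.18 CPM in Helios null mice, against 3.99 and 5.42 CPM in wild-type mice (-1.26), and the groups of both promoters did not overlap.

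**Figure D5:**
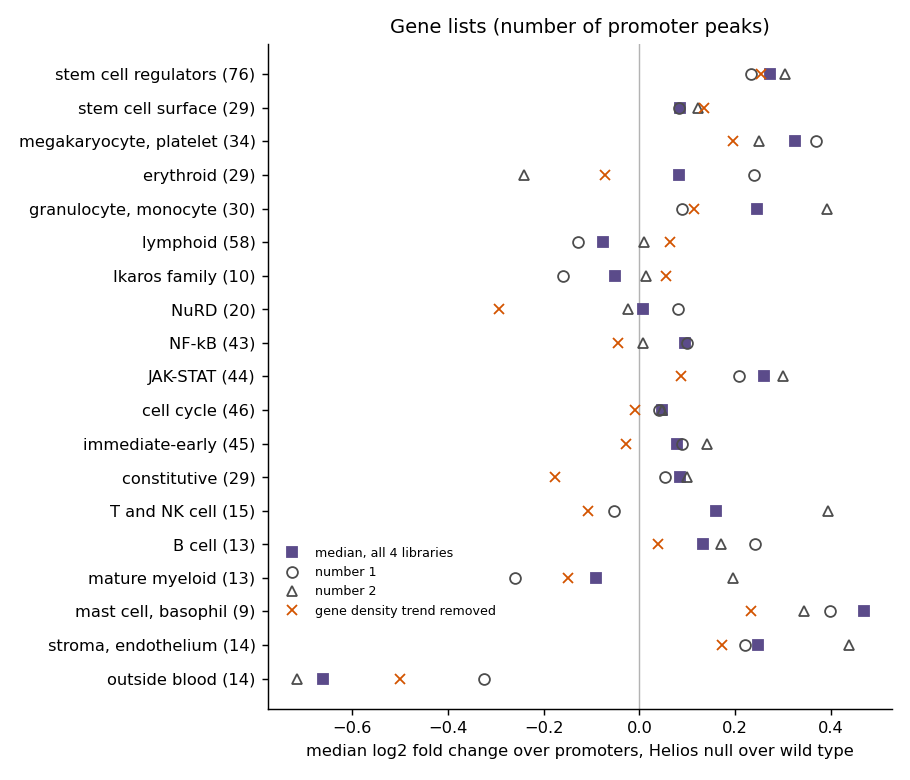
Median log2 fold change, Helios null over wild type (x axis), over the promoter peaks of each gene list (rows, with the number of peaks), from all 4 libraries (squares), within library number 1 (circles) and 2 (triangles) and with the gene density trend removed (crosses). Stem cell regulators stay between 0.23 and 0.30 in all of these, genes used outside blood lie between -0.72 and -0.33, and erythroid genes lie on both sides of 0.

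The widest promoters were mixed in direction. Tmc6, with the widest peak at 2791 bp, held 81.5 and 62.1 CPM in Helios null mice, against 51.5 and 36.2 CPM in wild-type mice (log2 fold change 0.71), and Msl1, a gene of a histone acetylation complex, 47.7 and 39.5 CPM, against 35.2 and 26.1 CPM (0.51). Cdk13, which encodes a kinase of RNA polymerase, held 76.5 and 93.5 CPM in Helios null mice, against 119.6 and 151 CPM in wild-type mice (-0.67), and Ing2 and Chst2 had -0.54 and -0.37. Tmc6 and Msl1 lie on chromosome 11. All 5 were called with library number, against 29.2% of all these promoters and 23.4% of all tested peaks. With gene density offsets and library number Msl1 was no longer called (log2 fold change 0.21, edgeR adjusted p = 0.234).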

How the data were processed

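Fast-ATAC libraries of sorted marrow cells from 4 mice were used, 2 Helios null and 2 wild type. Per the submitters' processing notes, the build was mm10 and the tools were HOMER, DESeq, Bowtie2 2.3.4.3 and bcl2fastq 2.17.1.14, whose roles they do not list. The sources used here do not name the peak caller. The deposited table gives, for each library, whole-number read counts per peak without normalization. Its baseMean column is a signal made by the authors, an average of scaled counts. The authors' fold change and its SE are log2 values, and the table also holds the authors' p-value and adjusted p-value.

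Counts were fitted over all peaks with edgeR 4.0.16 in R 4.3.3: filterByExpr (12 of the 16845 promoters and 175 other peaks dropped), TMM scaling, glmQLFit and glmQLFTest on genotype, 2-sided, Benjamini-Hochberg adjusted over all peaks. CPM are TMM-normalised and log2 CPM differences within library numbers use a prior count of 2. Alternatives were DESeq2 1.42.0, limma-voom (limma 3.58.1), other scalings and filters, each library left out, library number as a block, autosomes only, chromosome 1 left out and 1 peak per gene. Gene density offsets, DESeq2 with the block, the strongest 1 of 10 signal bins left out and the count near Ikzf2 were added after seeing the data. The libraries of a group were not copies of each other: over the promoters, chi-square divided by its degrees of freedom was 6.87 in Helios null and 14.2 in wild type. Only the edgeR test on genotype alone was tried on simulated counts, with independent libraries and a spread not taken from these data. The other models were not tried in this way.

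Named promoters are the 10 highest per kb (peaks of at least 200 bp), the 10 with the smallest p in each direction among those of at least median CPM with groups that do not overlap, the 5 widest, the 5 genes with most promoter peaks, the Ikaros family and, per gene list, the 2 highest in CPM and the 2 with the smallest p. The members and lists were chosen with earlier results of these data known. Some gene names in the deposited table had turned into dates, at 25 tested promoters, which are in the counts and are not named. Some genes that the rule names are not reported here. Genes with several promoter peaks enter a list once per peak.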

Additional observations from a re-analysis of the deposited data

Results flagged for a closer look

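In 6 gene lists the libraries of number 1 and of number 2 went opposite ways in their median log2 fold change, Helios null over wild type. The median over 29 erythroid promoter peaks was 0.24 within number 1 and -0.24 within number 2. The median over 13 mature myeloid promoter peaks was -0.26 within number 1 and 0.20 within number 2. That over 15 T and NK cell promoter peaks was -0.0531 within number 1 and 0.39 within number 2. The other lists had a median close to 0 in 1 of the numbers, with -0.13 and 0.00924 for lymphoid genes, -0.16 and 0.0131 for the Ikaros family and 0.0812 and -0.0236 for the NuRD complex, number 1 before number 2. Each value compares 1 Helios null library with 1 wild-type library, so the difference between the numbers was not tested.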

How the results depend on the processing

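No promoter passed edgeR in either direction with DESeq2 size factors, promoter factors, loess offsets, no filter, the stricter filter or limma-voom, while total counts gave 1 lower. With the replicate block, 1892 promoters were called higher and 3023 lower. No label ties equal numbers to a common litter, batch or day. Around their group means, libraries of equal number deviated together across promoters (r = 0.492, from 2 pairs), and the block also holds depth and the Y chromosome. Gene density offsets gave 1 lower and a median log2 fold change of -0.10, and with the replicate block 867 higher, 3138 lower and a median of -0.10. DESeq2 called 24 higher and 156 lower, and with the replicate block 519 and 1694. Leaving out 1 library gave between 1 and 1593 higher and between 4 and 2778 lower. Without Helios null 1 the 5 calls were Map2, Acadl and the Y-linked Eif2s3y, Uty and Ddx3y. Helios null 2, the Helios null library kept there, held 2 counts at promoters of Y-linked genes, against 1323 and 5 in wild type 1 and 2. The cause of the moves between fits was not tested. The gene list medians kept their sign in all 16 other fits for stem cell regulators, stem cell surface, megakaryocyte, JAK-STAT, B cell, mast cell, stroma and genes used outside blood, and in 11 to 15 of the 16 for the other lists.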
